A study of Mus musculus with 12 samples.

Results

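The genes P2ry12, Tmem119, Cx3cr1, Csf1r, Trem2 and Tyrobp, which mark resting (homeostatic) microglia, were followed in mouse brain after loss of Usp18. They were taken as a fixed list of 6 genes, which were represented by 10 probe sets, out of 12393 genes and 22690 probe sets on the arrays. The 12 arrays, Affymetrix 3' expression arrays with biotin-labelled RNA of whole brain, came from adult mice that had received no treatment and were housed free of specific pathogens. There were 3 arrays for each of 4 genotypes, namely mice lacking both Usp18 and Ifnar1 (USP18ko:IFNARko), mice lacking Usp18 alone (USP18ko), mice lacking Ifnar1 alone (IFNARko) and wild-type mice (WT). USP18 cleaves ISG15, a ubiquitin-like modifier, off its targets and dampens type I interferon receptor signalling, and Ifnar1 encodes a chain of that receptor. Strain, sex and the extent of each deletion were not given in the labels, nor was it said that the arrays of a genotype came from different animals. The p-values therefore describe the spread among these samples, and part of that spread may be technical.

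Microglia are the resident macrophages of the brain parenchyma. Their survival depends on CSF1R, the receptor tyrosine kinase for CSF1 and IL-34, and in the resting state they carry the ADP receptor P2RY12, the fractalkine receptor CX3CR1 and the membrane protein TMEM119. TREM2, a receptor for lipids and lipoproteins, signals through the adaptor TYROBP (also called DAP12), which carries an immunoreceptor tyrosine-based activation motif. In activated microglia P2ry12, Tmem119 and Cx3cr1 transcripts are commonly reduced, whereas Trem2 and Tyrobp are commonly retained or raised.

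The targeted genes were read first. Usp18 had log2 signals of 3.50 to 3.71 in USP18ko:IFNARko, 3.55 to 3.76 in USP18ko, 3.53 to 3.67 in IFNARko and 4.04 to 4.36 in WT, so the IFNARko arrays, which carry the gene, read as low as the knockouts. The labels do not place its probes relative to the deletion, and this signal does not check the labels. Ifnar1 read 6.56 to 6.68 in USP18ko:IFNARko, 7.76 to 8.01 in USP18ko, 6.24 to 6.59 in IFNARko and 7.44 to 8.21 in WT. Array medians were 6.98 to 7.07, and precision is limited by the number of arrays. IFNARko replicate 1 stood apart in the 3' to 5' signal difference of actin, 1.48 against 0.20 to 0.54 elsewhere. Xist, a transcript of the inactive X chromosome, was high in the USP18ko:IFNARko arrays (10.34 to 11.34) and in WT replicate 1 (10.17), and 4.98 to 5.69 in the other arrays. Eif2s3y, a Y-linked transcript, was 3.05 and 3.22 in USP18ko:IFNARko replicates 1 and 3 and 3.18 in WT replicate 1, but 7.16 in USP18ko:IFNARko replicate 2, near the USP18ko arrays (7.26 to 8.25). Both transcripts were thus high in USP18ko:IFNARko replicate 2, and its sex-linked signals disagree. Of 18 measured interferon-stimulated genes, 17 rose in USP18ko against WT (list median 3.12), where 1.15% of all genes were called higher.

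None of the 6 homeostatic genes passed the test in USP18ko against WT, although 5 of 6 had higher means in USP18ko. Their log2 differences (USP18ko minus WT) ran from -0.35 for P2ry12 to 1.26 for Tyrobp, with a median of 0.50, beside a median of -0.02 over all genes. All arrays entered 1 limma fit, and genes passed at a Benjamini-Hochberg adjusted p below 0.05, taken over all 12393 genes. In this comparison 1.15% of genes were called higher and 0.00807% lower. At an unadjusted p under 0.05, 4 of 6 were higher in USP18ko, where 3.2% of all genes were higher at that p. In bulk lysate, fewer or more cells of a type and less or more RNA per cell cannot be told apart.

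**Figure D1:**
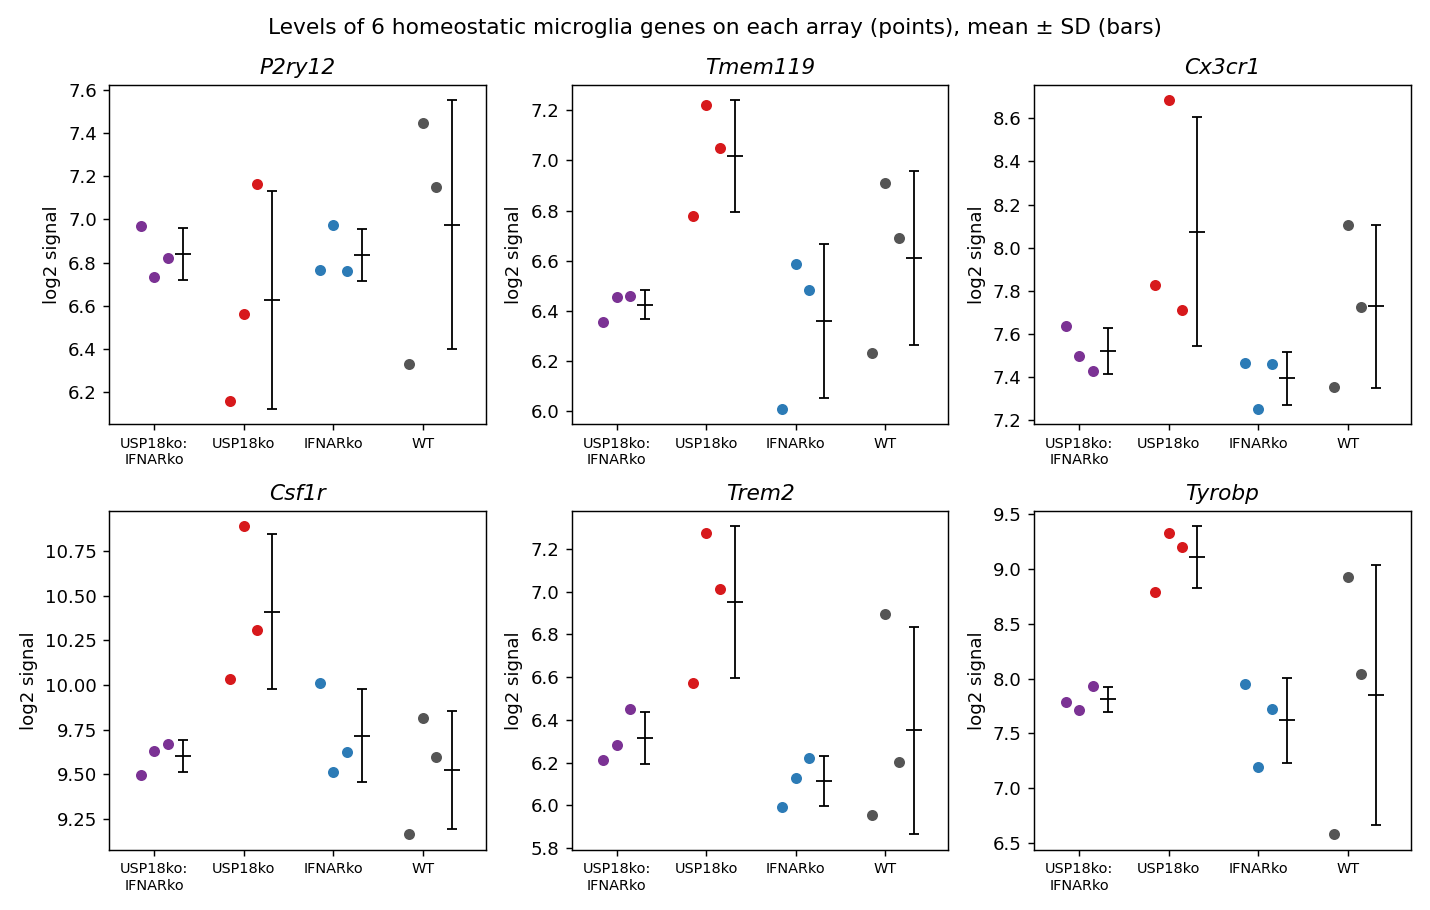
Log2 signal (y axis) of each gene on every array, by genotype, with the probe set of highest mean signal; points are arrays and bars the mean ± SD of 3 arrays. The 3 USP18ko arrays lie above all other arrays for Csf1r, whereas P2ry12 overlaps among all genotypes.

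On GRCm38.p6, the RefSeq assembly used for positions, P2ry12 lies at chr3:59216271-59262985, Tmem119 at chr5:113793729-113800396, Cx3cr1 at chr9:120048683-120068296, Csf1r at chr18:61105572-61131139, Trem2 at chr17:48346401-48352276 and Tyrobp at chr7:30413782-30417582.

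P2ry12 encodes the ADP receptor through which microglial processes sense injury, and its transcript is the member with the lower mean in USP18ko. Its log2 signals were 6.16, 6.56 and 7.16 in the USP18ko arrays, against 6.33, 7.44 and 7.15 in the WT arrays. They were 6.97, 6.73 and 6.82 in the USP18ko:IFNARko arrays and 6.77, 6.97 and 6.76 in the IFNARko arrays. The USP18ko and WT arrays overlapped over most of their range, and each spanned more than the arrays of the genotypes without Ifnar1. The difference between USP18ko and WT was -0.35 (SE 0.27, 95% confidence interval -0.92 to 0.23, adjusted p = 1.00 in limma). It was -0.67 without WT replicate 1 and -0.11 without WT replicate 2 or USP18ko replicate 1, and -0.61 without USP18ko replicate 3.

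Tmem119, whose product marks microglia among brain macrophages, read 6.78, 7.22 and 7.05 in the USP18ko arrays and 6.23, 6.91 and 6.69 in the WT arrays. USP18ko replicates 2 and 3 lay above all WT arrays, and replicate 1 fell within the WT range. The difference was 0.41 (SE 0.19, 95% confidence interval 0.0017 to 0.81, adjusted p = 1.00 in limma). It was 0.22 without WT replicate 1. Cx3cr1 encodes the receptor for the neuronal chemokine fractalkine. It read 7.83, 8.68 and 7.71 in USP18ko and 7.35, 8.10 and 7.73 in WT. USP18ko replicate 2 alone lay above the WT arrays, and the other two lay inside their range. The Cx3cr1 difference was 0.35 (SE 0.23, 95% confidence interval -0.16 to 0.85, adjusted p = 1.00 in limma), and it was 0.04 without USP18ko replicate 2 and 0.16 without WT replicate 1.

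Csf1r encodes the receptor that microglia need for survival, and it came closest to the threshold. It read 10.04, 10.89 and 10.31 in the USP18ko arrays, against 9.16, 9.82 and 9.60 in the WT arrays. In the USP18ko:IFNARko arrays it read 9.50, 9.63 and 9.67, and in the IFNARko arrays 10.01, 9.51 and 9.63. All 3 USP18ko arrays thus lay above the other 9, as was the case for 2.15% of all genes, although the margin over IFNARko replicate 1 was small. The difference from WT was 0.89 (SE 0.21, 95% confidence interval 0.42 to 1.35, adjusted p = 0.0976 in limma), or 1.85-fold on the linear scale. It passed without USP18ko replicate 1 (1.07, adjusted p = 0.0407) and in none of the other alternatives, where the adjusted p was 0.0563 to 0.462. Groups did not overlap, with USP18ko higher, for 4.07% of all genes and for 1 of the 6 members, Csf1r.

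Trem2 and its adaptor Tyrobp had higher means in USP18ko as well. Trem2 read 6.57, 7.27 and 7.01 in USP18ko and 5.96, 6.89 and 6.20 in WT, where the highest WT array exceeded the lowest USP18ko array. The difference was 0.60 (SE 0.22, 95% confidence interval 0.13 to 1.08, adjusted p = 0.614 in limma). Tyrobp read 8.79, 9.33 and 9.20 in USP18ko and 6.58, 8.93 and 8.05 in WT, so that the WT arrays covered a range of 2.35. Its difference was 1.26 (SE 0.43, 95% confidence interval 0.34 to 2.18, adjusted p = 0.491 in limma), the largest of the 6 and the least precise. Without WT replicate 2 both passed, Trem2 at 0.87 (adjusted p = 0.0348) and Tyrobp at 1.80 (adjusted p = 0.0210). Without WT replicate 1 the values were 0.40 and 0.62, and neither passed.

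**Figure D2:**
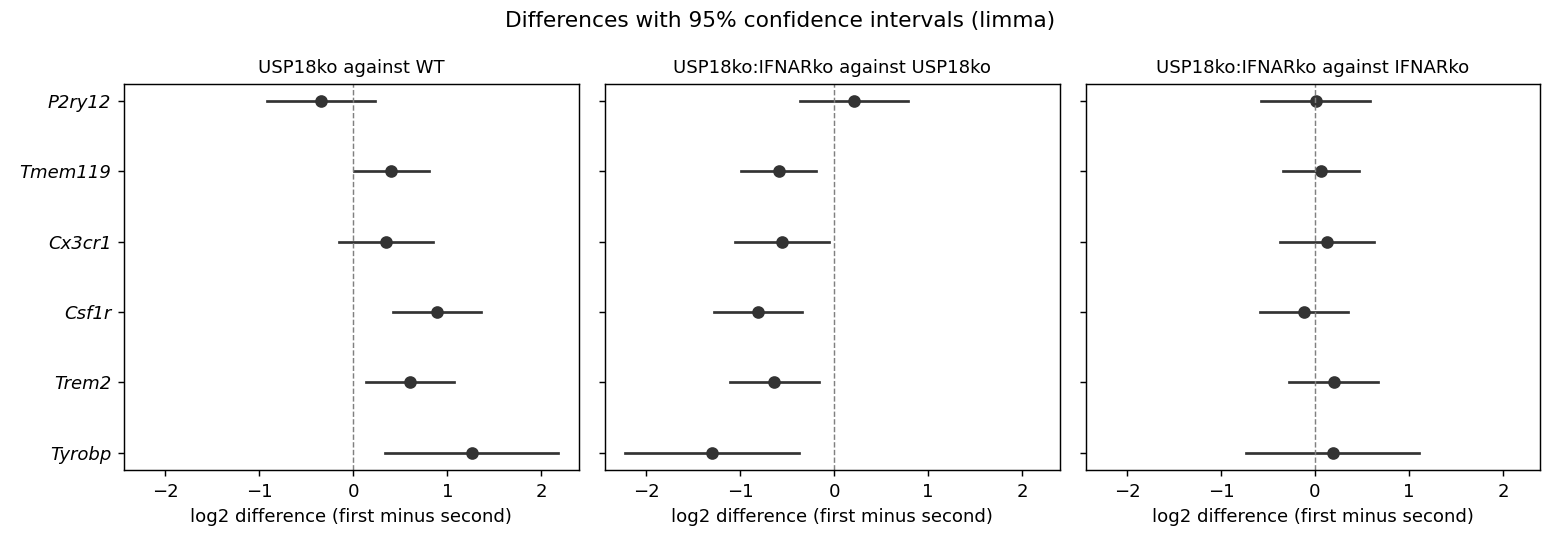
Log2 differences (x axis) of the 6 genes with 95% confidence intervals from limma, which are not adjusted for the number of genes, in 3 comparisons. Intervals lie above 0 for 4 genes in USP18ko against WT and below 0 for 5 genes in USP18ko:IFNARko against USP18ko, and all 6 span 0 in USP18ko:IFNARko against IFNARko.

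Removal of the receptor on the Usp18-deficient background was then examined. Xist was high on every USP18ko:IFNARko array and low on every USP18ko array. Differences by genotype and by apparent sex, as read from Xist, therefore cannot be told apart here. None of the 6 genes passed in USP18ko:IFNARko against USP18ko in the fit by genotype alone, where 0.0242% of genes were called higher and 1.48% lower. For 5 of the 6, all but P2ry12, the 3 USP18ko:IFNARko arrays lay below the 3 USP18ko arrays, which held for 8.09% of all genes. The same 5 were lower at an unadjusted p under 0.05, where 3.71% of all genes were. Each gene was read by its probe set of highest mean signal. The groups overlapped for the other probe sets of Cx3cr1 (1450019_at, -0.66) and Trem2 (1421226_at, -0.05). They did not overlap for the other Csf1r probe sets. Both comparisons share the USP18ko arrays and are not independent.

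In that comparison Tyrobp differed most. It read 7.79, 7.71 and 7.93 in the USP18ko:IFNARko arrays, a difference of -1.30 from USP18ko (SE 0.43, adjusted p = 0.356 in limma). For Csf1r the difference was -0.81 (SE 0.21, adjusted p = 0.130). For Trem2, at 6.21, 6.28 and 6.45, it was -0.64 (SE 0.22, adjusted p = 0.422). Tmem119 read 6.36, 6.46 and 6.46 and differed by -0.59 (SE 0.19, adjusted p = 0.299). Cx3cr1 read 7.64, 7.50 and 7.43 and differed by -0.55 (SE 0.23, adjusted p = 0.804). P2ry12 had a difference of 0.21 (SE 0.27, adjusted p = 1.00), which is opposite in sign to the other 5. With Eif2s3y as a covariate, which sets USP18ko:IFNARko replicate 2 beside the USP18ko arrays despite its high Xist, the values were nearer to 0 for those 5 genes, at -0.51 for Csf1r, -0.54 for Tyrobp, -0.38 for Trem2, -0.36 for Tmem119 and -0.29 for Cx3cr1, and P2ry12 moved to 0.55. Without USP18ko replicate 2 Cx3cr1 differed by -0.25, and P2ry12 differed by -0.02 without USP18ko replicate 1 and by 0.48 without USP18ko replicate 3. These SEs draw on the spread within all genotypes, WT included. For Tyrobp the SD was 1.19 in WT, against 0.11 in USP18ko:IFNARko and 0.28 in USP18ko. Tyrobp passed without WT replicate 1 (adjusted p = 0.0155). With only the groups of the comparison in the limma fit, Tyrobp (adjusted p = 0.00103) and Tmem119 (adjusted p = 0.0307) passed. With the replicate number as a block, Tmem119 passed (-0.59, adjusted p = 0.0340 in limma) and the other 5 did not.

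Without the receptor, loss of Usp18 left no called member. Xist was low on every IFNARko array too, so genotype and apparent sex cannot be told apart in this comparison either. In USP18ko:IFNARko against IFNARko, 0% of genes were called by limma in either direction, and 8.25% reached an unadjusted p under 0.05, none of them a member. Differences ran from -0.12 for Csf1r to 0.20 for Trem2. Their 95% confidence intervals reached from -0.58 to 0.35 for Csf1r and from -0.27 to 0.67 for Trem2. Tyrobp differed by 0.19, with the widest interval, -0.73 to 1.11.

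The other comparisons with WT gave no called member either. In IFNARko against WT, where 0.00807% of genes were called in either direction, the members differed by -0.33 (Cx3cr1) to 0.19 (Csf1r), and none reached an unadjusted p under 0.05, which 9.79% of all genes did. The other Csf1r probe sets gave 0.02 (1419873_s_at) and -0.26 (1423593_a_at). For 1423593_a_at all IFNARko arrays lay below the WT arrays, which held for 6.74% of all genes. Tyrobp read 7.95, 7.19 and 7.72 in IFNARko, all within the WT range, and Cx3cr1 read 7.47, 7.25 and 7.46. Tmem119 read 6.01, 6.59 and 6.48 and Trem2 5.99, 6.13 and 6.22 in IFNARko, where the lowest value of each came from IFNARko replicate 1. In USP18ko:IFNARko against WT, where 0.0161% were called in either direction, the members differed by -0.21 (Cx3cr1) to 0.08 (Csf1r), again with none at an unadjusted p under 0.05, which 4.09% of all genes reached. Xist was high on every USP18ko:IFNARko array but only on replicate 1 of the WT arrays, so apparent sex is unevenly spread here too.

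Whether the effect of Usp18 loss differs with the receptor present or absent was tested as an interaction, in which 0.847% of genes were called in either direction. None of the 6 was called, and 1 was lower at an unadjusted p under 0.05, where 3.61% of all genes were. This was Csf1r, at -1.003 (SE 0.30, 95% confidence interval -1.66 to -0.34, adjusted p = 0.384 in limma). Its other probe sets, each tested by itself, gave -0.75 (1419873_s_at) and -0.34 (1423593_a_at), the latter with an interval of -0.76 to 0.07. Tyrobp followed at -1.07 with an interval of -2.37 to 0.24. P2ry12 was again the member of opposite sign, at 0.35 with an interval of -0.47 to 1.17. Xist was high on every USP18ko:IFNARko array and otherwise on WT replicate 1 alone, so this interaction is not separated from apparent sex. With Eif2s3y as a covariate, it was 0.04 for Tmem119, 0.21 for Cx3cr1, 0.005 for Trem2 and 0.15 for Tyrobp. Csf1r and P2ry12 kept their sign.

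Ordered by mean, USP18ko came last for P2ry12 and first for every other member, whereas the order of the remaining genotypes differed among those members. P2ry12 averaged 6.84 ± 0.12 in USP18ko:IFNARko, 6.63 ± 0.50 in USP18ko, 6.83 ± 0.12 in IFNARko and 6.97 ± 0.58 in WT (SD, n = 3 each), so neighbours in that order did not differ beyond their spread. Tyrobp averaged 7.81 ± 0.11, 9.11 ± 0.28, 7.62 ± 0.39 and 7.85 ± 1.19 in the same genotypes. Csf1r averaged 9.60 ± 0.09, 10.41 ± 0.44, 9.72 ± 0.26 and 9.53 ± 0.33. USP18ko was first in the order for both of these genes, and the means of the other genotypes lay closer together than the SD of WT.

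Several members had more than 1 probe set, and these did not all behave alike. The 3 Csf1r probe sets each placed all 3 USP18ko arrays above all 3 WT arrays, with differences of 0.89 (1419872_at), 0.75 (1419873_s_at) and 0.46 (1423593_a_at). When every probe set was tested by itself, their adjusted p was 0.155, 0.144 and 0.380 in limma, where 0.932% of probe sets were called in either direction. Across the 12 arrays their signals correlated at r = 0.84 to 0.98. The 2 Cx3cr1 probe sets differed by 0.35 (1450020_at) and 0.49 (1450019_at). For Trem2, 1421792_s_at gave 0.60 and 1421226_at gave 0.13, and the pair correlated at r = 0.35 over the 12 arrays. The second Trem2 probe set read 4.52 to 5.04 on all arrays, and no detection calls were used here, so this level is not shown to be above background. The suffix s_at marks a probe set that can bind more than 1 transcript, which applies to the Trem2 probe set with the larger difference and to 1 Csf1r probe set.

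**Figure D3:**
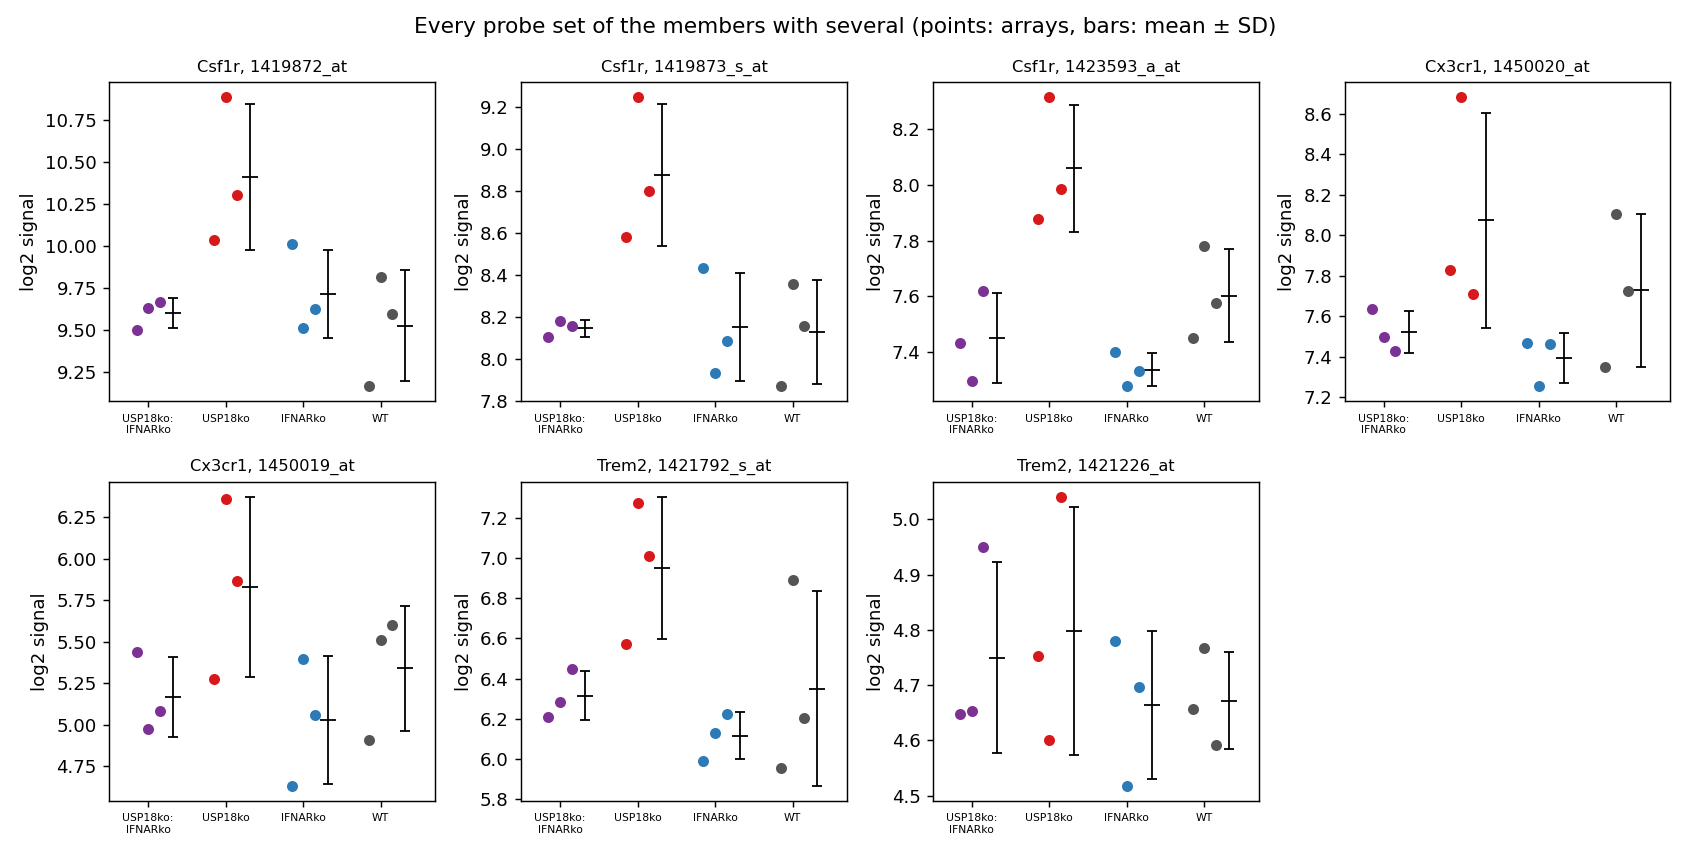
Log2 signal (y axis) of every probe set of Csf1r, Cx3cr1 and Trem2 on each array, by genotype; points are arrays and bars the mean ± SD of 3 arrays. USP18ko lies highest in the 3 Csf1r panels, and the Trem2 probe set 1421226_at shows overlapping genotypes at 4.52 to 5.04.

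Within WT and within USP18ko, most members moved together between replicates, which bears on their error. WT replicate 2 was the highest and WT replicate 1 the lowest WT array for 6 of 6 members, an order seen for 20.2% of all genes. In USP18ko, replicate 2 was the highest for 5 of 6 members, with P2ry12 as the exception, and for 26.8% of all genes. Within IFNARko and within USP18ko:IFNARko, the highest replicate differed among the members. Relative to the WT mean, the mean of the 6 genes stood at 0.19, 0.82 and 0.57 on the USP18ko arrays, against -0.57, 0.51 and 0.06 on WT replicates 1, 2 and 3. Oligodendrocyte markers were spread even more among the WT arrays, at 1.84, -1.23 and -0.60 from the WT mean on replicates 2, 3 and 1, and neuron markers at 0.00, 0.04 and -0.04. WT replicate 1 was also the WT array with high Xist. The part of these features in the members' differences was not tested.

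**Figure D4:**
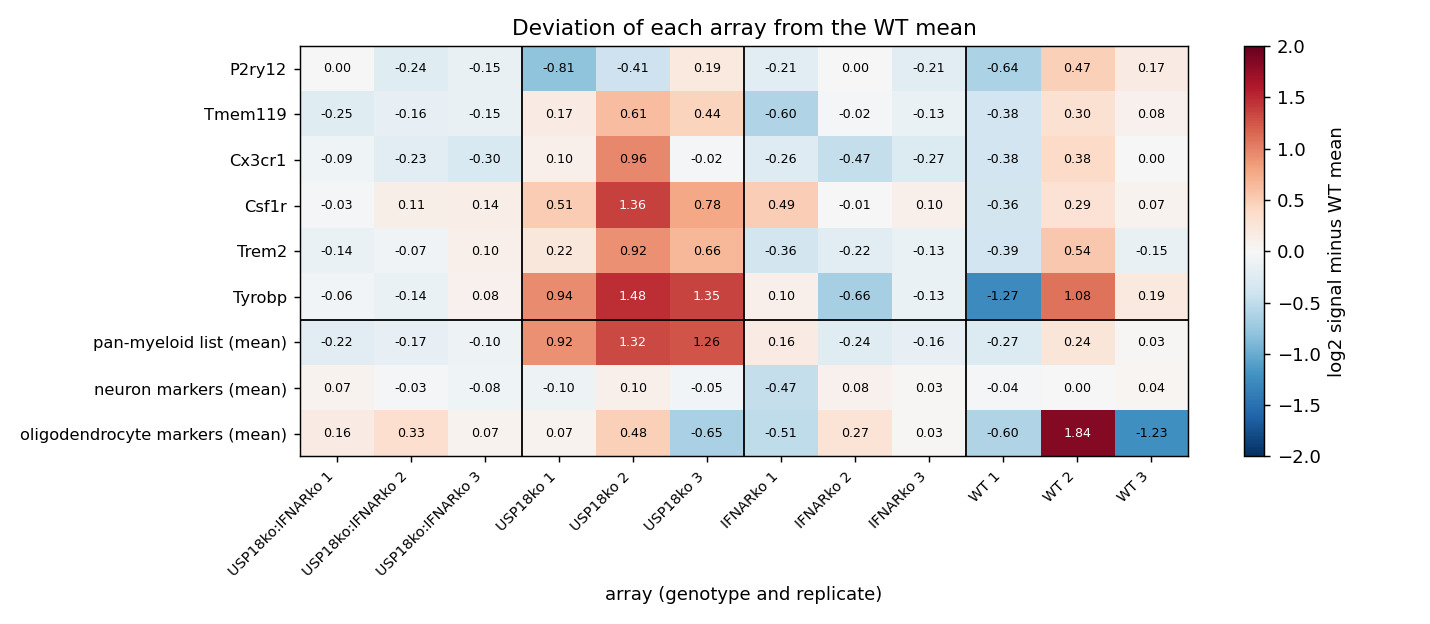
Deviation of each array (x axis, genotype and replicate) from the WT mean, as log2 signal, for the 6 genes and, below the line, for the mean of 3 gene lists (y axis); colour and printed value both give the deviation. WT replicate 2 is above the WT mean for all 6 genes and WT replicate 1 below it, and oligodendrocyte markers stand at 1.84 on WT replicate 2.

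Correlations among the members separated P2ry12 from the rest. Over the 12 arrays, which share normalization and genotype, Pearson's r among the 5 genes other than P2ry12 was 0.69 to 0.91, and r of P2ry12 with them was -0.05 to 0.22. After genotype means were removed, r of P2ry12 with the others was 0.27 to 0.72, and 0.41 to 0.84 among the other 5. These values are descriptions of 12 arrays.

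The genes most like each member over the 12 arrays by Pearson's r differed in kind. Nearest to Csf1r were Ifitm1, an interferon-inducible membrane protein (r = 0.97), the Fc receptor gene Fcgr3 (0.97) and Igsf6 (0.96), which rose by 1.04 in USP18ko against WT (adjusted p = 0.00869 in limma). Nearest to Tyrobp were the lysosomal protein gene Cd68 (0.97), the inflammasome adaptor gene Pycard (0.97) and Fcer1g (0.96), which encodes a signalling adaptor of Fc receptors and rose by 1.43 (adjusted p = 0.0289). Trem2 had Tmem176a (0.95) and the complement genes C1qb (0.94) and C1qc (0.93). Tmem119 had the cathepsin gene Ctsz (0.95), C1qb (0.95) and the tetraspanin gene Cd37 (0.95). Cx3cr1 had Apoc1 (0.96), Ier3 (0.94) and S100a4 (0.92). P2ry12 had Saal1 (0.80), Tpra1 (0.77) and Cyb561d2 (0.75), and its nearest genes were less alike than those of any other member. These ranks were not stable. Without IFNARko replicate 1, Saal1, Tpra1 and Cyb561d2 ranked 12, 16 and 35 for P2ry12. After genotype means were removed they ranked 2, 55 and 20, and Pycard and Fcer1g ranked 58 and 45 for Tyrobp.

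Promoter sequence is shown for the members in the RefSeq table (GRCm38.p6) that can be printed here. A link between these sequences and the array signals was not tested. Of the 6 members, 3 are shown, each from 250 bases before to 50 bases after the annotated start, written 5′ to 3′ on the strand of the gene. They lie at chr3:59262936-59263235 on the minus strand (P2ry12), chr9:120068247-120068546 on the minus strand (Cx3cr1) and chr17:48346151-48346450 on the plus strand (Trem2). Capitals mark matches to any of 3 motifs searched on both strands.
P2ry12: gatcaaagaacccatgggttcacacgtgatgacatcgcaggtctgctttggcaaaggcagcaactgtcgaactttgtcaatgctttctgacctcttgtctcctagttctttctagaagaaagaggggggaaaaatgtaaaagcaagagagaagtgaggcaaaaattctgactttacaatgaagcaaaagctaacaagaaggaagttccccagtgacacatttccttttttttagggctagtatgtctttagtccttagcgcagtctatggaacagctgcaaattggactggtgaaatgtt
Cx3cr1: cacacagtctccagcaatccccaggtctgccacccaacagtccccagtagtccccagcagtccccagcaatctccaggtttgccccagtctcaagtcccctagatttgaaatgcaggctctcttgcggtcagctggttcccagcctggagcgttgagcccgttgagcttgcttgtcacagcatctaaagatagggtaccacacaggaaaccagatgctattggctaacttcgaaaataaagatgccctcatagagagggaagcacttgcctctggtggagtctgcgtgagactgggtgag
Trem2: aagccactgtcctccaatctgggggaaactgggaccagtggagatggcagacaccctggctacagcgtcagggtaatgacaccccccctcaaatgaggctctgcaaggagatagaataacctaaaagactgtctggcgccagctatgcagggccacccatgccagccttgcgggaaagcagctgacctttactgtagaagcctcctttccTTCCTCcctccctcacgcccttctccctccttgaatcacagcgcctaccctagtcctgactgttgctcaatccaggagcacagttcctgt
The motifs were GAGGAA, the PU-box read by the myeloid factor PU.1, the core of the interferon-stimulated response element (GAAA, any 2 bases, GAAA), and TTCNNNGAA, the GAS element. They occurred in 28.1%, 3.45% and 8.33% of 32544 promoters of the same length. Trem2 held 1 PU-box, on the minus strand, starting 40 bases before the annotated start, and overlapping no other motif. No match was found in the windows of P2ry12 and Cx3cr1, which says only that these letters are not in these windows.

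The other genes of the microglial programme were counted next, from lists that were chosen with earlier results of these data known. In USP18ko against WT, 1.15% of all genes were called higher and 0.00807% lower. Of 25 measured further homeostatic microglia genes, 3 rose in USP18ko against WT and 0 fell (list median 0.12, beside -0.02 over all genes). They were the protease gene Ctss (1.91, adjusted p = 0.000582), C1qa, a chain of complement C1q (1.79, adjusted p = 0.0232), and P2ry6, the UDP receptor gene (0.89, adjusted p = 0.0232), all in limma. The lowest difference in the list was -0.29 for Gpr34, which did not pass. Ctss read 10.96 to 11.51 in USP18ko and 8.71 to 9.67 in WT. The count of 3 was 5 without WT replicate 2, and 1 without WT replicate 3 or without either of USP18ko replicates 2 and 3. It was also 1 with genes of low signal (up to the 40th percentile of the mean) left out of the test, a filter that can remove genes of the list itself. In USP18ko:IFNARko against USP18ko, where 1.48% of all genes were called lower, 6 of the 25 fell (list median -0.29). Among them was Ctss (-2.16, adjusted p = 0.000166 in limma). The count of 6 was 2 or 3 without either USP18ko replicate 2, USP18ko replicate 3 or any 1 of the USP18ko:IFNARko arrays. It was 2 with low-signal genes left out.

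Genes shared by all myeloid cells or linked to activation included called genes in the same arrays, and whether they differ from the 6 homeostatic genes was not tested. Of 19 measured, 12 rose in USP18ko against WT (list median 1.10), where 1.15% of all genes were called higher. Examples were Cd52 (3.12), Ptprc, the leukocyte phosphatase CD45 (2.12), Aif1, a marker of microglia and macrophages (1.93), and Tlr2, a pattern recognition receptor (1.31). Aif1 read 7.72 to 8.26 in USP18ko, against 5.30 to 6.71 in WT. The largest of the members' differences, 1.26 for Tyrobp, was exceeded by 6 of the 12, and its SE of 0.43 was larger than that of each of these genes. In USP18ko:IFNARko against USP18ko 12 of the 19 fell (median -1.19), where 1.48% of all genes were called lower. The first count was 9 to 13 when 1 array was left out. With low-signal genes left out, a filter that can remove genes of the list from the test, both counts were 2.

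**Figure D5:**
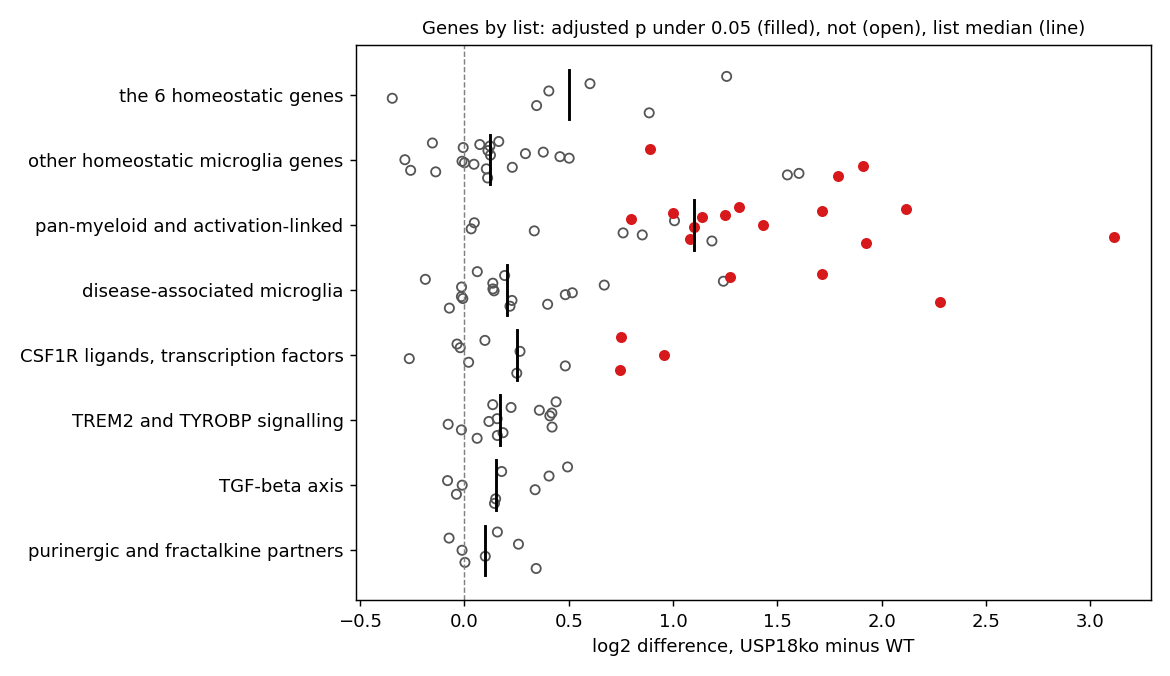
Log2 difference, USP18ko minus WT (x axis), of each gene of 8 lists (y axis); filled points passed an adjusted p under 0.05 in limma, open points did not, and the line is the list median. The 6 homeostatic genes are all open, whereas 12 of 19 pan-myeloid and activation-linked genes are filled.

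Further lists, of ligands, transcription factors, signalling partners and disease-associated microglia, were read in USP18ko against WT. In that comparison 1.15% of all genes were called higher and 0.00807% lower. Of 11 measured CSF1 receptor ligands and microglial transcription factors, 3 rose in USP18ko against WT, namely Irf8 (0.96, adjusted p = 0.00116), Spi1, which encodes PU.1 (0.75, adjusted p = 0.00847), and Cebpb (0.75, adjusted p = 0.0220). Spi1 read 6.49 to 6.72 in USP18ko and 5.74 to 5.97 in WT. The ligand genes, named for their role, gave 0.48 for Csf1 (adjusted p = 0.160) and -0.26 for Il34 (adjusted p = 1.00) and did not pass. The count of 3 was 1 without USP18ko replicate 2 or 3. It was 0 with low-signal genes left out, a filter that can remove genes of the list from the test. Of the 14 genes of TREM2 and TYROBP signalling 0 passed (median 0.17), with Vav1 highest (0.44) and Grb2 lowest (-0.08). Of 9 genes of the TGF-beta axis, which maintains the homeostatic state, 0 passed (median 0.15), and Tgfbr2 was highest (0.49). Of 7 purinergic and fractalkine partners 0 passed (median 0.10), with Adcy7 highest (0.34) and P2rx7 lowest (-0.07). In lists this short, 0 called genes is near the share over all genes and does not show that these genes were unchanged. Of 20 measured genes of disease-associated microglia, 3 rose, B2m (2.28), Lyz2 (1.71) and Lgals3 (1.28). Lyz2 is also counted in the pan-myeloid and activation-linked list. This count of 3 was 2 to 4 when 1 array was left out, and 3 with low-signal genes left out.

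Markers of other cells that share some of these genes are given beside them. In USP18ko against WT, 1.15% of all genes were called higher and 0.00807% lower. Of 8 perivascular macrophage markers, 1 rose in USP18ko against WT, Ms4a7 (1.74, adjusted p = 1.11e-05), with list means per array of 6.27 to 6.61 in USP18ko, 6.11 to 6.53 in IFNARko and 5.60 to 6.08 in WT. Of 8 measured monocyte and neutrophil markers, 1 rose, Plac8 (3.35, adjusted p = 3.78e-05), with list means of 5.06 to 5.24 in USP18ko and 4.12 to 4.31 in WT. Of 11 lymphocyte markers 0 passed, with list means of 4.56 to 4.85 in USP18ko and 4.62 to 4.70 in WT. These signals have no detection calls, so no marker can be given as absent, and their part in the members' values was not tested. Of 5 measured microglia markers, all of them also in the lists above, 4 rose in USP18ko against WT (list median 1.79). In USP18ko:IFNARko against USP18ko 4 of the 5 fell (list median -1.91), where 1.48% of all genes were called lower. No member of the lists for astrocytes, oligodendrocytes, neurons and endothelium passed in limma. For lists this short, 0 called genes is near the share over all genes.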

How the data were processed

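The deposited values were log2 signals per probe set, made by the authors with affy per the submitters' processing notes; its version, background correction, normalization and summary method: not given in the sources used here. Base 2 was inferred from the values. Each gene took the probe set of largest mean signal across arrays, among 20380 probe sets annotated to 1 gene. All arrays were fitted together by genotype in limma 3.58.1 (R 4.3.3), with Benjamini-Hochberg adjustment over 12393 genes; an exact test of 3 against 3 arrays cannot go below p = 0.1. The scripts were tested on simulated data. Members and gene lists were chosen with earlier results of these data known. Named genes were the members, at most 5 called genes per list and comparison by smallest p (otherwise the extremes), and the 3 genes most correlated with each member. Alternatives covered probe set choice, low signal, normalization, array weights, variance, replicate block, Eif2s3y as a covariate and left-out arrays. After removal of genotype means, same-numbered USP18ko:IFNARko and USP18ko arrays correlated at 0.16, 0.27 and 0.14 across genes. The labels do not give pairs, and the reported fit used genotype alone in every comparison. A block for the replicate number was run over all arrays as an alternative only. Detection calls were not used, and 0 array columns belonged to no sample.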

Additional observations from a re-analysis of the deposited data

How the results depend on the processing

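No direction of a member in USP18ko against WT reversed under any alternative run, and 790 of 846 values kept direction and side of the threshold, while 42 uncalled differences reversed and 14 newly passed. Members called in USP18ko:IFNARko against USP18ko, 0 in the reported fit, were 4 with array weights (whose estimate stopped before convergence), 2 with only the groups of the comparison, 1 with the replicate block, and 3 without both IFNARko replicate 1 and WT replicate 1, a setting chosen after seeing the data, as was leaving out both IFNARko replicate 1 and USP18ko:IFNARko replicate 2. Leaving out 1 array gave 0 to 2 called members in USP18ko against WT and 0 to 1 in USP18ko:IFNARko against USP18ko. Over all genotypes 6 of 18 same-numbered pairs had r over 0.1 and 5 of 12 arrays correlated best with their own number. Numbers were not taken as pairs in the reported fit. In USP18ko:IFNARko against USP18ko the replicate block changed the call of Tmem119 and of no other member. It gave 0 called genes in IFNARko against WT and 0 in USP18ko:IFNARko against WT. Called genes in USP18ko against WT were 28 above the 40th percentile of signal, a filter that left out Tmem119 and Trem2. In USP18ko:IFNARko against USP18ko they were 37 with that filter, 500 with array weights, 287 with only the 2 groups, 124 with Eif2s3y and 311 without IFNARko 1 and WT 1. The interaction gave 20 with the filter and 51 with Eif2s3y. IFNARko against WT gave 3 by probe set, 2 with weights, 0 with only the 2 groups, 11 and 3 without each pair of arrays, and 0 to 5 leaving out 1. USP18ko:IFNARko against WT gave 0 by probe set, 0 with the filter, 0 with quantile normalization, 1 with Eif2s3y, 58 and 1 without the pairs, and 0 to 3 leaving out 1. USP18ko:IFNARko against IFNARko gave 814 with weights, 2 with only the 2 groups, 1 without either pair, and 0 to 3 leaving out 1. Reversed differences were all uncalled. Averaging probe sets gave -0.017 for Csf1r in IFNARko against WT, and -0.020 for Csf1r and 0.021 for Trem2 in USP18ko:IFNARko against WT. P2ry12 in USP18ko:IFNARko against IFNARko was -0.0030 with quantile normalization and -0.0064 with median centring. Array weights gave -0.0051 for Csf1r against WT and -0.092 for Tmem119 against IFNARko in USP18ko:IFNARko. With Eif2s3y, USP18ko:IFNARko against WT was 0.079 for P2ry12, 0.12 for Trem2 and 0.44 for Tyrobp, Csf1r against IFNARko was 0.25, and the interaction was 0.038 for Tmem119, 0.21 for Cx3cr1, 0.0050 for Trem2 and 0.15 for Tyrobp. Without IFNARko 1 and WT 1, Csf1r was -0.14 in IFNARko against WT and -0.11 in USP18ko:IFNARko against WT, USP18ko:IFNARko against IFNARko was -0.027 for P2ry12, -0.11 for Tmem119 and 0.031 for Csf1r, and the Cx3cr1 interaction was 0.0052. Without IFNARko 1 and USP18ko:IFNARko 2, Tyrobp was 0.0083 against WT, Tmem119 -0.13 and Csf1r 0.015 against IFNARko. Leaving out 1 array, IFNARko against WT spanned -0.46 to 0.094 for P2ry12, -0.43 to 0.036 for Trem2 and -0.87 to 0.31 for Tyrobp. USP18ko:IFNARko against WT spanned -0.45 to 0.10 for P2ry12, -0.11 to 0.22 for Csf1r, -0.23 to 0.24 for Trem2 and -0.68 to 0.50 for Tyrobp. USP18ko:IFNARko against USP18ko spanned -0.022 to 0.48 for P2ry12. USP18ko:IFNARko against IFNARko spanned -0.058 to 0.076 for P2ry12, -0.11 to 0.18 for Tmem119, -0.22 to 0.031 for Csf1r and -0.023 to 0.35 for Tyrobp. The Cx3cr1 interaction spanned -0.41 to 0.086. The cause of these changes was not tested, and low signals have no detection call.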

Other observations

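The spread of the members among replicates differed by genotype. Their SD was 0.06 to 0.12 in USP18ko:IFNARko, 0.22 to 0.53 in USP18ko, 0.12 to 0.39 in IFNARko and 0.33 to 1.19 in WT. It was smaller in USP18ko:IFNARko than in WT for 6 of 6 members, which held for 74.7% of all genes, and smaller in USP18ko:IFNARko than in USP18ko for 6 of 6, against 67% of all genes. It was smaller in IFNARko than in WT for 6 of 6 members, against 41.9% of all genes. No test was made of these spreads, each of which rests on 3 arrays.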
